A study of Mus musculus with 13 samples.

Results

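The expression of 10 genes that act in the activation, reception and transduction of transforming growth factor beta (TGF-beta) and in bone morphogenetic protein (BMP) signalling was measured in regulatory T (Treg) cells and in Treg “wannabes” of mice. The genes are *Tgfb1*, *Lrrc32*, *Itgb8*, *Tgfbr1*, *Tgfbr2*, *Smad3*, *Smad7*, *Skil*, *Bmp7* and *Twsg1*. They were picked by name for their roles in these pathways, with earlier results of these data known, as 10 of the 24417 named genes in the count tables, and all 10 had enough reads to be tested in every comparison.

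Treg “wannabes” are CD4 T cells that transcribe the *Foxp3* locus from an allele, Foxp3LSL, in which a STOP cassette blocks Foxp3 protein and a Thy1.1 reporter marks the cells. The first of 2 bulk RNA-seq experiments used male C57BL/6 mice, all injected with 4-hydroxytamoxifen (4-OHT) at the age of 14 days and analyzed 7 days afterwards, on day 21. Rescued Treg cells came from 3 Foxp3LSL/yCd4creERT2 mice, whose Cre recombinase, expressed from *Cd4* and switched on by 4-OHT, removes the cassette. Control Treg cells came from 3 healthy Foxp3DTR-GFP/yCd4creERT2 mice, which carry the same Cre and a *Foxp3* allele fused to the diphtheria toxin receptor and GFP. “Wannabes” came from 2 Foxp3LSL/yCd4wt mice, which lack the Cre and stayed diseased. The second experiment used female C57BL/6 mice aged 9 to 11 weeks, all without the Cre and all given diphtheria toxin. Resting “wannabes” came from 3 Foxp3LSL/WTCd4wt mice, whose Treg cells the toxin spares. Activated “wannabes” came from 2 Foxp3LSL/DTRCd4wt mice, in which the toxin removes the Treg cells and the “wannabes” become activated. In each sort from spleen and lymph node the “wannabes” were selected for Thy1.1 and the Treg cells for Foxp3. Because rescued and control mice differ in their *Foxp3* allele as well as in their disease history, the effects of the allele and of the inflamed surroundings cannot be told apart. Besides Foxp3 protein in the cells, control and male “wannabe” mice differ in the allele, the Cre and disease. Rescued and male “wannabe” mice differ in the Cre and the course of disease. These effects cannot be told apart either.

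TGF-beta is secreted in a latent form. Treg cells hold it at their surface on the protein encoded by *Lrrc32* (GARP), from which the integrin that contains the beta 8 chain can release it. Active ligand joins the receptors encoded by *Tgfbr2* and *Tgfbr1*, which phosphorylate Smad2 and Smad3; Smad7 and the Ski-like corepressor dampen the response. BMPs, relatives of TGF-beta, signal mainly through Smad1 and Smad5 and are held in check outside the cell by binding proteins such as twisted gastrulation. In T cells TGF-beta is known for its part in the induction of peripheral Treg cells, in the restraint of effector responses and in the expression of the tissue-retention integrin chain encoded by *Itgae*.

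Between 25556780 and 36659640 reads were counted on named genes per library, and the Pearson correlation between replicate libraries, across genes on a log2 scale, was between 0.927 and 0.989. Every value given as a level is in CPM, a gene's count divided by the size of its library, with library sizes scaled by edgeR's TMM method within an experiment, so levels in the male and female experiments are set side by side without a test. The labels were checked on *Foxp3*, whose level averaged 961 ± 130.4 CPM over the 3 rescued libraries and 211 ± 42.6 CPM (both SD) over the 3 control libraries and lay between 52.8 and 99.8 CPM in the 7 “wannabe” libraries. *Thy1*, which also reads the Thy1.1 reporter, lay between 176 and 327 CPM in the “wannabes” and between 36.4 and 46.7 CPM in the Treg cells. The summed level of 4 CD4 T cell markers was between 2214 and 3800 CPM in all libraries. Markers of other cells were low but not equal between groups. The summed level of 5 stromal and endothelial markers was 0.777 to 0.916 CPM in control Treg, 3.91 to 6.21 in rescued Treg, 3.45 to 16.8 in male “wannabe”, 0.700 to 3.06 in resting and 3.18 to 4.15 in activated “wannabe” libraries. The summed level of 6 myeloid markers was 4.59 to 11.5, 7.66 to 13.4, 1.80 to 6.80, 1.81 to 5.39 and 5.76 to 9.65 CPM in the same order. B cell markers (5 genes) summed to 32.0 to 39.7 CPM in control Treg, 38.1 to 42.3 in rescued Treg, 34.6 to 44.1 in male “wannabe”, 9.80 to 12.1 in resting and 22.5 to 24.7 in activated “wannabe” libraries, with no overlap between resting and activated “wannabes”. NK cell markers (3 genes) summed to 0.612 to 1.38 CPM in control and 3.47 to 8.34 CPM in rescued Treg cells and to 4.87 to 8.77, 2.76 to 5.46 and 3.50 to 5.82 CPM in male, resting and activated “wannabes”. Dendritic cell markers (4 genes) summed to 0.863 to 1.93, 1.94 to 3.55, 4.20 to 7.36, 3.30 to 4.40 and 5.92 to 8.04 CPM in the order of groups used for the stromal markers. CD8 T cell markers (2 genes) summed to 9.72 to 13.9 CPM in resting and 14.2 to 15.9 CPM in activated “wannabes”, without overlap. In the male groups they summed to 12.2 to 27.8 CPM. Across all groups erythroid markers (3 genes) summed to 0.992 to 17.2 CPM. The part of such cells in the levels of the 10 genes was not tested. Of 5 platelet and megakaryocyte markers, which matter here because platelets also carry GARP and TGF-beta, *Pf4* and *Gp1bb* were at 0 in every group and the sum did not exceed 3.27 CPM. In bulk samples, fewer cells that express a gene and less RNA per cell cannot be told apart.

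Between rescued and control Treg cells only *Bmp7* passed the test, higher in rescued cells (1 of 10 genes, beside 2.3% of the 14925 genes tested, 1.43% higher and 0.864% lower). With DESeq2 in place of edgeR 3 of the 10 genes were called, beside 1096 rather than 343 of all genes. Without control Treg replicate 1 none of the 10 was called. Against the male “wannabes”, 6 of the 10 rose in rescued Treg cells (*Lrrc32*, *Itgb8*, *Tgfbr1*, *Smad3*, *Bmp7* and *Twsg1*) and none was called lower, where 14.1% of all genes tested were called, 10% higher and 4.06% lower. In the fit of these groups alone 2 of the 10 were called, and without rescued Treg replicate 3 it was 3. In control Treg cells 5 rose against the same “wannabes” (*Lrrc32*, *Itgb8*, *Tgfbr1*, *Tgfbr2* and *Twsg1*), where 16.2% of all genes were called, 9.92% higher and 6.27% lower. In activated against resting “wannabes” *Lrrc32* and *Bmp7* rose and *Tgfbr1*, *Tgfbr2*, *Skil* and *Twsg1* fell, 6 of 10 beside 22.5% of the 13166 genes tested, 11.3% higher and 11.2% lower. The median log2 fold change of the 10 genes was -0.15 in rescued against control Treg cells, 0.99 in rescued Treg cells against “wannabes”, 0.62 in control Treg cells against “wannabes” and -0.43 in activated against resting “wannabes”. Over all genes tested it was -0.03, 0, 0.09 and -0.01. The comparisons of rescued and of control Treg cells with the male “wannabes” share the 2 “wannabe” libraries, so their values stand side by side and are not independent. Since the 10 genes were chosen with earlier results known, their counts beside the all-gene shares are a description.

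**Figure D1:**
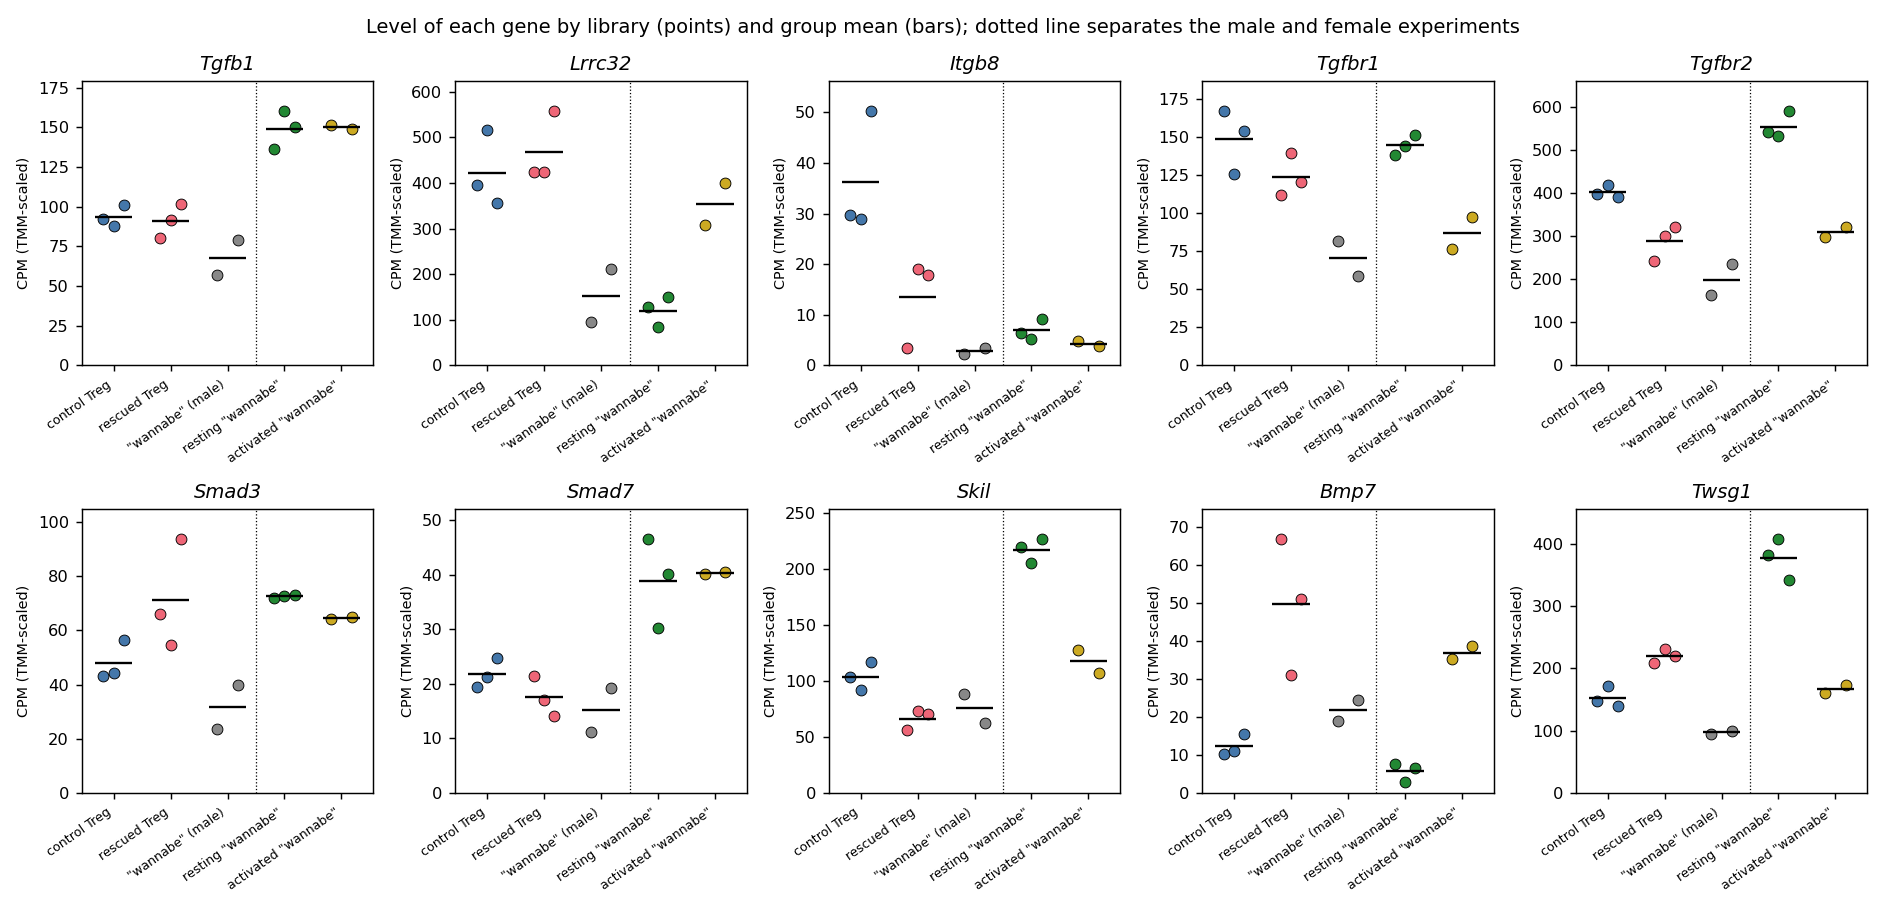
Level of each of the 10 genes (y axis, TMM-scaled CPM, linear from 0) in each of the 13 libraries (points), by group (x axis), with bars at the group means and a dotted line between the male and the female experiment. The *Bmp7* points of rescued Treg cells, 31.0 to 66.8 CPM, lie above those of control Treg cells, 10.3 to 15.5 CPM, and the *Lrrc32* points of activated “wannabes”, 309 and 399 CPM, above those of resting ones, 83.5 to 149.6 CPM.

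*Tgfb1* encodes the TGF-beta1 precursor, the main form of the ligand in lymphocytes (GRCm38 chromosome 7, 25687002 to 25705077, plus strand). It was at 92.0, 88.1 and 101 CPM in control Treg cells, at 80.2, 91.4 and 102 CPM in rescued Treg cells and at 56.7 and 79.1 CPM in male “wannabes”. The Treg groups overlapped, and both “wannabe” libraries lay below every Treg library. None of the 3 differences passed the test: the log2 fold change was -0.04 (95% interval -0.44 to 0.35, adjusted p = 0.952) in rescued against control Treg cells, 0.42 (SE 0.20, adjusted p = 0.200) in rescued Treg cells against “wannabes” and 0.47 (SE 0.20, adjusted p = 0.145) in control Treg cells against “wannabes”. In the female mice *Tgfb1* was at 137, 160.1 and 150.1 CPM in resting and at 151 and 149 CPM in activated “wannabes”, within the same range, with a log2 fold change of 0.01 (95% interval -0.20 to 0.23, adjusted p = 0.937).

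*Lrrc32* encodes GARP, the surface anchor of latent TGF-beta on activated Treg cells (chromosome 7, 98489283 to 98502181, plus strand). Its level was 396, 516 and 355 CPM in control Treg cells, 423, 424 and 557 CPM in rescued Treg cells and 94.0 and 211 CPM in male “wannabes”. The Treg groups overlapped, and both “wannabe” libraries lay below all 6 Treg libraries. *Lrrc32* rose 3.07-fold in rescued Treg cells (log2 fold change 1.62, SE 0.31, adjusted p = 0.00550) and 2.77-fold in control Treg cells (1.47, SE 0.31, adjusted p = 0.00891) against “wannabes”, calls kept in all 14 alternative analyses. The sizes depended on the “wannabe” libraries, with log2 fold changes of 2.27 in rescued and 2.12 in control Treg cells without “wannabe” replicate 2 and of 1.15 and 1.00 without replicate 1. Between rescued and control Treg cells the log2 fold change was 0.15 (95% interval -0.43 to 0.72, adjusted p = 0.865). In the female mice, where no group has Foxp3 protein in the cells sorted, *Lrrc32* was at 127, 83.5 and 149.6 CPM in resting and at 309 and 399 CPM in activated “wannabes”. The activated libraries lay above every resting library, and *Lrrc32* rose 2.95-fold (log2 fold change 1.56, SE 0.24, adjusted p = 0.00675). Without replicate 2 of the activated “wannabes” its adjusted p was 0.0678 and the log2 fold change 1.35. The difference between the 2 changes, rescued against control less activated against resting, was -1.40 on the log2 scale (95% interval -2.30 to -0.50, adjusted p = 0.128). It passed the test with DESeq2 (adjusted p = 0.0225) and without either male “wannabe” library. The male “wannabes” have no weight in this difference, so leaving a library of theirs out acts only through the shared spread, filter and scaling.

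*Itgb8* encodes the integrin beta 8 chain, which pairs with the alpha V chain to release TGF-beta from its latent complex (chromosome 12, 119158022 to 119238802, minus strand). It was at 29.6, 29.0 and 50.2 CPM in control Treg cells, at 3.48, 19.0 and 17.8 CPM in rescued Treg cells and at 2.29 and 3.38 CPM in male “wannabes”. Replicate 1 of the rescued Treg cells lay far below the other rescued libraries and just above the “wannabes”, and no group overlapped with another. *Itgb8* rose 12.8-fold in control Treg cells (log2 fold change 3.68, SE 0.68, adjusted p = 0.00469; called in all 14 alternatives) and 4.73-fold in rescued Treg cells (2.24, SE 0.63, adjusted p = 0.0368) against “wannabes”. The call in rescued Treg cells was lost in 7 of 14 alternatives: in the fit of these groups alone (adjusted p = 0.0871), without control Treg replicate 1 (0.0587) or 2 (0.0506), without either “wannabe” library (0.144 without replicate 1, 0.0894 without replicate 2) and without rescued Treg replicate 2 (0.0920) or 3 (0.0938). The change from control to rescued Treg cells, -1.43 on the log2 scale (SE 0.52, 95% interval -2.57 to -0.30), did not pass after adjustment (adjusted p = 0.194). The female “wannabes” had low levels, 6.49, 5.29 and 9.07 CPM at rest and 4.78 and 3.80 CPM when activated, without overlap and without a call (log2 fold change -0.70, SE 0.29, adjusted p = 0.130). The partner chain gene *Itgav* was not called in any of these comparisons, with mean levels of 49.7 CPM in control Treg, 43.4 in rescued Treg and 22.5 in male “wannabe” cells and of 72.2 in resting and 60.6 in activated “wannabes”.

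*Tgfbr2* encodes the type II receptor that binds the ligand (chromosome 9, 116084293 to 116175360, minus strand) and *Tgfbr1* the type I receptor kinase that it activates (chromosome 4, 47353222 to 47414931, plus strand). *Tgfbr2* was at 398, 419 and 392 CPM in control Treg cells, at 242, 301 and 322 CPM in rescued Treg cells and at 163 and 235 CPM in male “wannabes”. The 3 groups followed each other in that order without overlap. *Tgfbr2* rose 2.02-fold in control Treg cells against “wannabes” (log2 fold change 1.02, SE 0.19, adjusted p = 0.00558), whereas the neighbouring steps did not pass the test, with log2 fold changes of -0.48 (SE 0.17, adjusted p = 0.180) in rescued against control Treg cells and 0.54 (SE 0.19, adjusted p = 0.0883) in rescued Treg cells against “wannabes”. The last of these passed without replicate 2 of the “wannabes” (adjusted p = 0.0272) and with a stricter filter of a mean CPM over 3 (adjusted p = 0.0332).

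Among female mice *Tgfbr2* was at 542, 532 and 589.9 CPM in resting and at 298 and 321 CPM in activated “wannabes”. Every activated library lay below every resting library, and *Tgfbr2* fell by 0.84 on the log2 scale (SE 0.08, adjusted p = 0.00134; called in all 10 alternatives). *Tgfbr1* showed the same order of groups in the female mice, 138, 144 and 152 CPM at rest against 76.3 and 97.6 CPM after activation, a fall by 0.74 on the log2 scale (SE 0.12, adjusted p = 0.00849). That call was lost without replicate 1 of the activated “wannabes” (adjusted p = 0.0574). In the male mice *Tgfbr1* was at 167, 126 and 154 CPM in control Treg cells, at 112, 139.9 and 120.4 CPM in rescued Treg cells and at 81.8 and 59.0 CPM in “wannabes”. The Treg groups overlapped (log2 fold change -0.26, SE 0.18, adjusted p = 0.552), and both lay above the “wannabes”, with a rise of 2.11-fold in control (adjusted p = 0.00626) and 1.76-fold in rescued Treg cells (adjusted p = 0.0236). The second rise was lost in the fit of these groups alone (adjusted p = 0.0690), without “wannabe” replicate 2 (0.151) and without rescued Treg replicate 2 (0.0608).

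*Smad3* encodes the receptor-activated Smad that carries the TGF-beta signal to the nucleus (chromosome 9, 63646767 to 63757994, minus strand). It was at 43.2, 44.3 and 56.2 CPM in control Treg cells, at 65.9, 54.4 and 93.6 CPM in rescued Treg cells and at 23.5 and 40.0 CPM in male “wannabes”. Rescued and control libraries overlapped (log2 fold change 0.57, SE 0.26, adjusted p = 0.312), and the “wannabes” lay below both. *Smad3* rose 2.25-fold in rescued Treg cells against “wannabes” (log2 fold change 1.17, SE 0.30, adjusted p = 0.0255), and not in control Treg cells past the threshold (0.60, SE 0.30, adjusted p = 0.200). The call was lost in the fit of these groups alone (adjusted p = 0.0677), without “wannabe” replicate 1 (0.129) and without rescued Treg replicate 3 (0.0792). Levels in the female mice were 71.9, 72.6 and 73.1 CPM at rest and 64.1 and 65.0 CPM after activation. These groups did not overlap, yet the difference was small and did not pass (log2 fold change -0.17, SE 0.08, adjusted p = 0.167).

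*Smad7* encodes the inhibitory Smad that TGF-beta itself induces (chromosome 18, 75367529 to 75395935, plus strand). It was low in the male mice, with 19.4, 21.2 and 24.8 CPM in control Treg, 21.5, 17.0 and 14.2 CPM in rescued Treg and 11.2 and 19.3 CPM in “wannabe” libraries. Rescued libraries overlapped with both other groups, and none of the 3 differences passed (log2 fold changes -0.31, 0.21 and 0.52, adjusted p = 0.686, 0.729 and 0.310 for rescued against control, rescued against “wannabe” and control against “wannabe”). In the female mice resting “wannabes” had 46.5, 30.2 and 40.1 CPM and activated ones 40.2 and 40.5 CPM, inside the resting range (log2 fold change 0.05, SE 0.18, adjusted p = 0.861).

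*Skil* encodes the Ski-like corepressor of Smad complexes (chromosome 3, 31095058 to 31122577, plus strand). It was at 103, 91.9 and 116 CPM in control Treg cells, at 55.8, 73.0 and 70.1 CPM in rescued Treg cells and at 88.1 and 62.9 CPM in male “wannabes”. Control Treg cells lay above both other groups without overlap, and rescued Treg cells and “wannabes” overlapped. No male difference passed (rescued against control -0.65 on the log2 scale, SE 0.19, 95% interval -1.07 to -0.22, adjusted p = 0.118; rescued against “wannabe” -0.19, SE 0.21, adjusted p = 0.611; control against “wannabe” 0.46, SE 0.22, adjusted p = 0.175), although DESeq2 called the first (adjusted p = 0.0360). Female mice had *Skil* at 219, 205 and 226 CPM in resting and at 128 and 107 CPM in activated “wannabes”. The groups did not overlap, and *Skil* fell by 0.89 on the log2 scale (SE 0.10, adjusted p = 0.00245; called in all 10 alternatives).

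*Bmp7* encodes a secreted BMP ligand (chromosome 2, 172868012 to 172940321, minus strand). It was at 10.3, 11.2 and 15.5 CPM in control Treg cells, at 66.8, 31.0 and 51.1 CPM in rescued Treg cells and at 19.0 and 24.5 CPM in male “wannabes”. The 3 groups did not overlap, with control Treg cells lowest and rescued Treg cells highest. *Bmp7* rose 4.02-fold in rescued against control Treg cells (log2 fold change 2.01, SE 0.31, 95% interval 1.32 to 2.69, adjusted p = 0.00964), a call kept in 13 of 14 alternatives and lost without control Treg replicate 1 (adjusted p = 0.0557, log2 fold change 1.90). Against “wannabes” it rose 2.28-fold in rescued Treg cells (1.19, SE 0.35, adjusted p = 0.0435) and had a log2 fold change of -0.82 (SE 0.33, 95% interval -1.55 to -0.08, adjusted p = 0.121) in control Treg cells. The rise against “wannabes” was kept in 6 of 14 alternatives only. It was lost in the fit of these groups alone (adjusted p = 0.0753) and with the replicate number as a block (0.0914). It was also lost without control Treg replicate 1 (0.0601) or 2 (0.0588), without “wannabe” replicate 1 (0.165) or 2 (0.0876) and without rescued Treg replicate 1 (0.130) or 3 (0.0935).

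Among female mice *Bmp7* was at 7.69, 2.95 and 6.48 CPM in resting and at 35.2 and 38.6 CPM in activated “wannabes”. Both activated libraries lay well above the highest resting library, and *Bmp7* rose 6.47-fold (log2 fold change 2.69, SE 0.35, 95% interval 1.84 to 3.54, adjusted p = 0.00382; called in all 10 alternatives). The 2 rises of *Bmp7*, in rescued against control Treg cells and in activated against resting “wannabes”, rest on separate mice and share no library. Their difference was -0.68 on the log2 scale (95% interval -1.76 to 0.41, adjusted p = 0.641). The summed stromal and endothelial markers were higher in the same 2 groups, at 3.91 to 6.21 against 0.777 to 0.916 CPM and at 3.18 to 4.15 against 0.700 to 3.06 CPM, and so were the dendritic cell markers, at 1.94 to 3.55 against 0.863 to 1.93 CPM and at 5.92 to 8.04 against 3.30 to 4.40 CPM. NK cell markers were also higher in rescued than in control Treg cells. B cell, CD8 T cell and myeloid markers were higher in activated than in resting “wannabes”. None of these ranges overlapped. The 2 male “wannabe” libraries, with 3.45 and 16.8 CPM of the stromal and endothelial markers, had *Bmp7* between control and rescued Treg cells. The part of any of these cells in the *Bmp7* level was not tested.

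*Twsg1* encodes twisted gastrulation, a secreted protein that binds BMPs and can restrain or favour their signal (chromosome 17, 65921972 to 65951226, minus strand). It was at 148, 172 and 139.8 CPM in control Treg cells, at 209, 230.3 and 220.4 CPM in rescued Treg cells and at 94.8 and 99.9 CPM in male “wannabes”. The 3 groups did not overlap, with rescued Treg cells highest and “wannabes” lowest. *Twsg1* rose 2.26-fold in rescued (log2 fold change 1.17, SE 0.17, adjusted p = 0.000891; called in all 14 alternatives) and 1.57-fold in control Treg cells (0.65, SE 0.16, adjusted p = 0.0197) against “wannabes”. The second call was lost in the fit of these groups alone (adjusted p = 0.0538), without control Treg replicate 2 (0.0719) and without either “wannabe” library (0.0592 without replicate 1, 0.0563 without replicate 2). Between rescued and control Treg cells the log2 fold change was 0.52 (SE 0.14, 95% interval 0.21 to 0.83, adjusted p = 0.0918). That difference passed with DESeq2 (adjusted p = 0.00989), with the mean CPM filter (0.0412) and in the fit of these groups alone (0.0497).

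In the female mice *Twsg1* was at 381, 407 and 342 CPM in resting and at 159.7 and 173 CPM in activated “wannabes”. Every activated library lay below every resting library, and *Twsg1* fell by 1.18 on the log2 scale (SE 0.10, adjusted p = 0.000871; called in all 10 alternatives). Of the 10 genes, *Twsg1* was the only gene called for a difference between the changes in the 2 experiments with all 13 libraries in edgeR, with *Lrrc32* called in the alternatives given above. The change in rescued against control Treg cells exceeded that in activated against resting “wannabes” by 1.71 on the log2 scale (SE 0.18, 95% interval 1.33 to 2.10, adjusted p = 0.000638). By that test 1.53% of the 15201 genes were called (0.803% higher and 0.73% lower), and the difference for *Twsg1* was called in all 18 alternatives, at 1.65 to 1.83.

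The promoters of *Twsg1* and *Tgfbr2*, which both fell in activated “wannabes”, are shown for comparison, as the stretch just upstream of the annotated start in the RefSeq promoter windows of GRCm38.p6. Capitals mark the letters CAGAC, the short element that Smad3 and Smad4 can bind, read here on the strand of the gene. The *Twsg1* stretch (chr17:65951227-65951437, minus strand) holds 2 adjacent copies and the *Tgfbr2* stretch (chr9:116175364-116175613, minus strand) 1.
Twsg1: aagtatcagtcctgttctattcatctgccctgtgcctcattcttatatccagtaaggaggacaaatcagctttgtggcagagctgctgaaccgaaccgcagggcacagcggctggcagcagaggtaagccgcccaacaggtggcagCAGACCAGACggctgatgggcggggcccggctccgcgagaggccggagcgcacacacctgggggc
Tgfbr2: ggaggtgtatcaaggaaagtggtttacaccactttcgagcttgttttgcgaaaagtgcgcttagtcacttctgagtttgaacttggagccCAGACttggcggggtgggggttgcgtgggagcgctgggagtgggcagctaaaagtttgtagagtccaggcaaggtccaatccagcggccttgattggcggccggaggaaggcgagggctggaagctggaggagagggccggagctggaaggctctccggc
On either strand CAGAC was found in the windows of 4 of the 6 genes that could be matched (*Itgb8*, *Tgfbr1*, *Tgfbr2* and *Twsg1*) and in 49.6% of all 32851 windows. GGCGCC, the GC-rich element of Smad1 and Smad5, was found for *Tgfbr1* alone among the 6 and in 11.9% of all windows, and the forkhead element TGTTTAC for none of the 6 and in 3.65% of all windows. These matches describe letters in a window and show no binding. *Lrrc32*, *Smad7*, *Skil* and *Bmp7* were not matched.

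**Figure D2:**
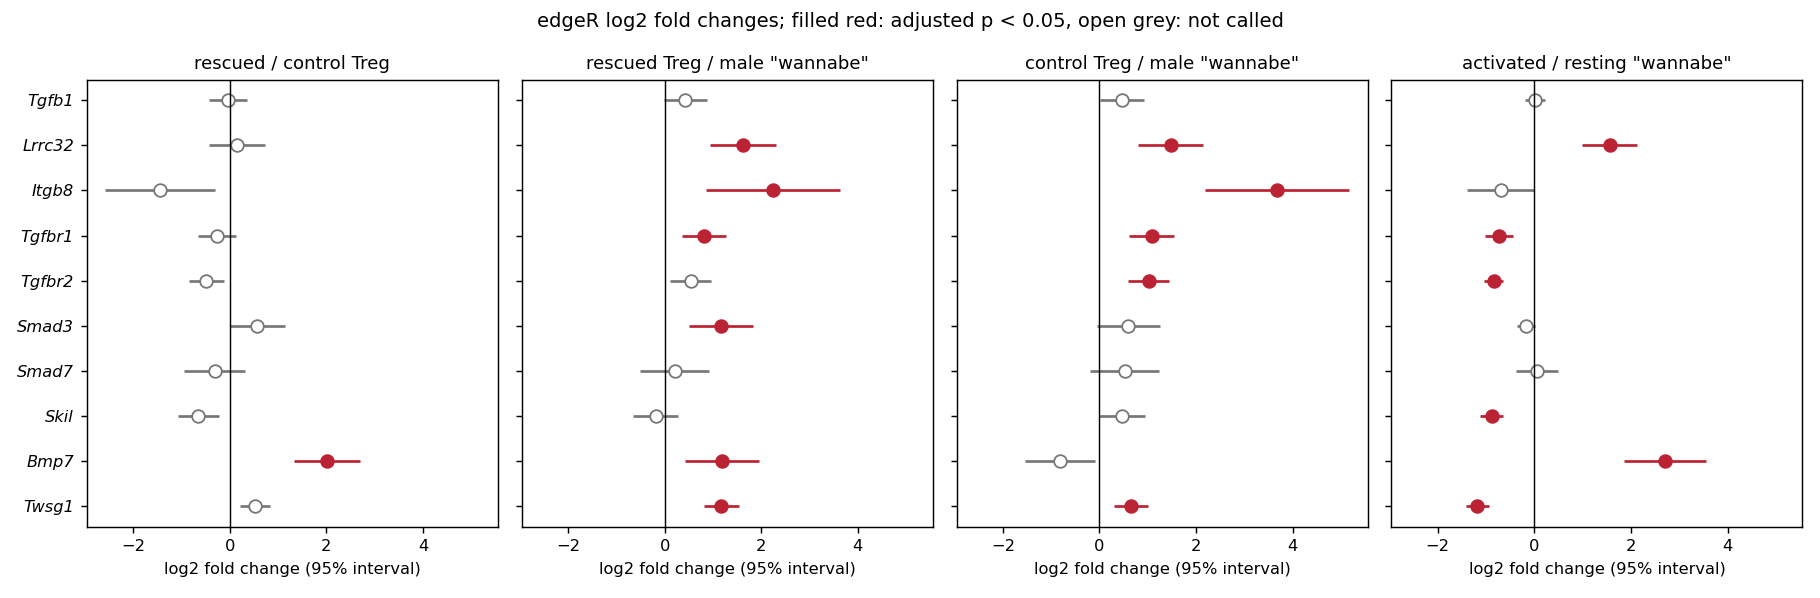
Log2 fold change (x axis) of the 10 genes (y axis) in the 4 comparisons, from edgeR, with bars for the 95% interval. Filled red points passed an adjusted p under 0.05 and open grey points did not. *Twsg1* lies at 0.52 in rescued against control Treg cells and at -1.18 in activated against resting “wannabes”, and *Bmp7* at 2.01 and 2.69.

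Groups that did not overlap were common among all genes at these sample numbers. In rescued against control Treg cells 5 of the 10 genes had no overlap (*Itgb8*, *Tgfbr2*, *Skil*, *Bmp7* and *Twsg1*), beside 24.2% of all genes tested. Against the male “wannabes”, 8 of 10 had none in rescued Treg cells (all but *Smad7* and *Skil*), beside 42.7% of all genes, and 10 of 10 in control Treg cells, beside 46.1%. In activated against resting “wannabes” 8 of 10 had none (all but *Tgfb1* and *Smad7*), beside 56.5%.

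Levels of different genes were compared per kilobase of exon. *Lrrc32* had the highest mean CPM per kb of the 10 genes in control Treg cells (90.1 ± 17.9, SD, n = 3), rescued Treg cells (99.8 ± 16.4, SD, n = 3), male “wannabes” (32.5 ± 17.6, SD, n = 2) and activated “wannabes” (75.5 ± 13.6, SD, n = 2). In resting “wannabes” it ranked number 4, at 25.6 ± 7.17 CPM per kb (SD, n = 3), after *Twsg1* (73.1 ± 6.38), *Tgfbr2* (67.7 ± 3.77) and *Tgfb1* (29.5 ± 2.34). There the order of *Twsg1* and *Tgfbr2* is within their spread, and so is that of *Lrrc32* beside *Tgfb1*, *Skil* (22.4) and *Tgfbr1* (22.1). In the male “wannabes” the SD of *Lrrc32* reached past the mean of *Tgfbr2*, at 24.3 CPM per kb, so that order is within the spread. *Itgb8* was lowest in 4 groups, at 0.256 to 1.21 CPM per kb, and in control Treg cells it stood at 3.28 ± 1.09 beside *Bmp7* at 3.07 ± 0.690, within the spread of each other. *Bmp7* was seventh of 10 in rescued Treg cells, at 12.3 ± 4.46 CPM per kb (SD, n = 3), and ninth in resting “wannabes”, at 1.42 ± 0.612 (SD, n = 3). In rescued Treg cells its order beside *Smad3*, the next gene up at 12.9 ± 3.63 CPM per kb, is within the spread.

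**Figure D3:**
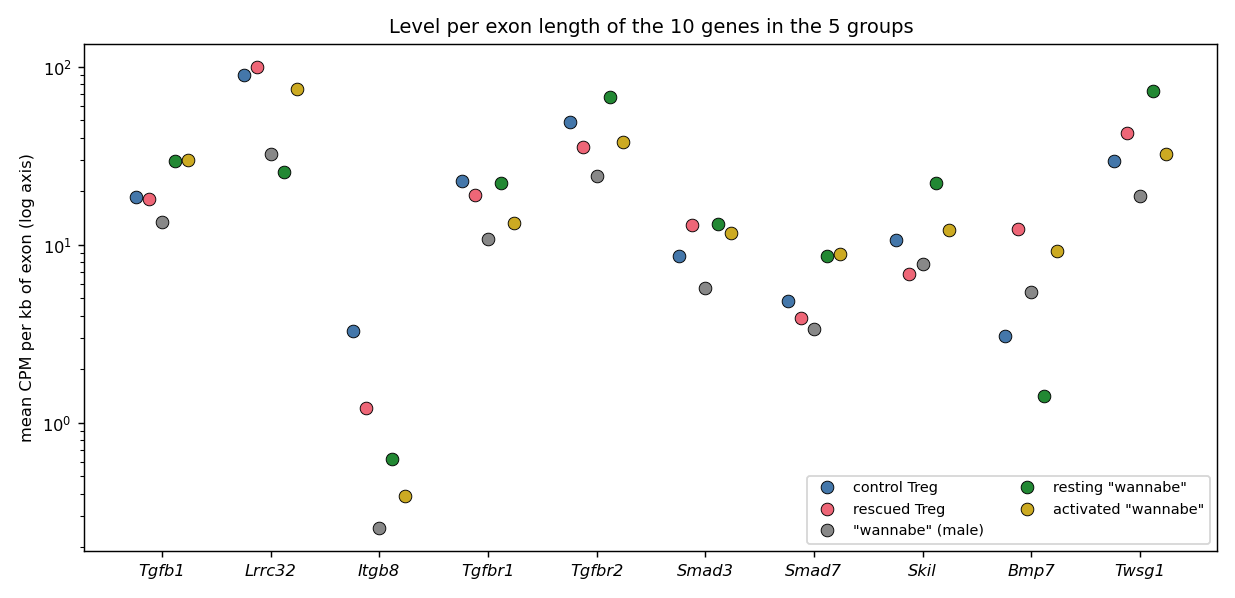
Mean CPM per kb of exon (y axis, log axis) of each of the 10 genes (x axis) in the 5 groups (colours). *Lrrc32* is highest in every group but resting “wannabes”, where *Twsg1* at 73.1 and *Tgfbr2* at 67.7 CPM per kb lie above it and within the spread of each other, and *Itgb8* is lowest in every group but control Treg cells.

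Of 73 further genes of the TGF-beta and BMP pathways, 56 were tested in the male mice and 49 in the female mice. In rescued against control Treg cells 3 of 56 were called (5.36%, beside 2.3% of all genes). With DESeq2 10 of the pathway genes were called, beside 1096 of all genes. *Itgae*, the integrin chain that TGF-beta induces in T cells, rose by 1.96 on the log2 scale (SE 0.22, adjusted p = 0.00199), from 289, 269.5 and 230.4 CPM to 1139, 872 and 1048 CPM. *Id2*, an inhibitor of E proteins, rose by 1.46 (SE 0.19, adjusted p = 0.00420), and its relative *Id3* fell by 1.50 (SE 0.24, adjusted p = 0.0102), a call lost without control Treg replicate 1 (adjusted p = 0.0531). The median log2 fold change of the 56 genes was -0.30, and -0.25 over the 52 that exceeded 3 counts in a library of both groups, beside -0.03 over all genes.

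Against the male “wannabes” 8 of the 56 genes were called in rescued Treg cells (4 higher and 4 lower, 14.3%, beside 14.1% of all genes) and 11 in control Treg cells (5 higher and 6 lower, 19.6%, beside 16.2%). *Tgfbr3*, the co-receptor betaglycan, fell in both, by 2.72 (adjusted p = 0.000233) and 1.93 (adjusted p = 0.000899) on the log2 scale, from a mean of 103 CPM in “wannabes” to 15.6 in rescued and 26.9 in control Treg cells. *Furin*, whose protease cleaves the TGF-beta precursor, fell by 1.42 (adjusted p = 0.00600) and 1.74 (adjusted p = 0.00243). *Nrros*, which encodes another anchor of latent TGF-beta, known from myeloid cells, fell by 0.72 (adjusted p = 0.0179) and 0.98 (adjusted p = 0.00402), and *Id2* by 1.53 (adjusted p = 0.000704) and 2.99 (adjusted p = 6.44e-05). *Runx1*, a partner of Smads and of Foxp3, rose by 1.09 (adjusted p = 0.00492) and 1.07 (adjusted p = 0.00572), and *Ldlrad4*, a brake on Smad phosphorylation, by 0.79 (adjusted p = 0.0420) and 1.44 (adjusted p = 0.00276).

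The other genes called against “wannabes” were *Itgae*, in opposite directions in the 2 comparisons, and 5 genes called in only 1 of them. Of these, *Itgae* and *Id3* also differed between rescued and control Treg cells, as given above. In rescued Treg cells *Smad1*, the BMP Smad, rose by 2.03 (adjusted p = 0.0361) and *Itgae* by 1.00 (adjusted p = 0.0188). In control Treg cells the activin-type receptor gene *Acvr1c* rose by 4.27 (adjusted p = 0.00720), the ubiquitin ligase gene *Nedd4l* by 1.73 (adjusted p = 0.0141) and *Id3* by 1.43 (adjusted p = 0.00576), and the ligand gene *Tgfb3* fell by 2.22 (adjusted p = 0.0217) and *Itgae* by 0.95 (adjusted p = 0.0187). *Acvr1c* was low throughout, at 5.98 to 11.2 CPM in control Treg cells and 0.229 and 0.591 CPM in “wannabes”, and its log2 fold change was 5.04 without “wannabe” replicate 2. *Smad1* lost its call in 6 of 14 alternatives: in the fit of these groups alone, with the replicate block, and without control Treg replicate 1, “wannabe” replicate 1 and rescued Treg replicates 1 and 3, with adjusted p up to 0.150, and its log2 fold change was 1.44 without “wannabe” replicate 1 and 2.97 without replicate 2. *Ldlrad4* in rescued Treg cells also lost it in 6 of 14: in the fit of these groups alone and without control Treg replicate 1, either “wannabe” and rescued Treg replicates 1 and 3, with adjusted p up to 0.134. For *Nrros* in rescued Treg cells it was lost in the fit of these groups alone and without “wannabe” replicate 2 and rescued Treg replicates 1 and 2 (up to 0.101). *Tgfb3* lost it with the block and without control Treg replicates 1 and 3 and “wannabe” replicate 1 (up to 0.0781). *Itgae* lost its rise in rescued Treg cells in the fit of these groups alone and without “wannabe” replicate 1 or rescued Treg replicate 1 (up to 0.0653), and its fall in control Treg cells without control Treg replicates 2 and 3 and “wannabe” replicate 2 (up to 0.133); over the alternatives its log2 fold change was 0.61 to 1.49 in rescued and -1.34 to -0.47 in control Treg cells. *Furin* in rescued Treg cells (0.0525 without “wannabe” replicate 2) and *Nedd4l* (0.0691 without “wannabe” replicate 1) each lost it without a single library.

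In activated against resting “wannabes” 11 of the 49 genes were called, 2 higher and 9 lower (22.4%, beside 22.5% of all genes). *Itgae* rose by 2.42 on the log2 scale (SE 0.26, adjusted p = 0.00181), from 64.6, 63.3 and 35.8 CPM to 328 and 255 CPM. *Nrp1*, which encodes a surface protein that can bind latent TGF-beta, rose by 1.48 (SE 0.20, adjusted p = 0.00401), from 116, 101 and 166 CPM to 364 and 347 CPM. Among the called genes the largest falls were those of the ligand gene *Mstn* (myostatin, -3.54, adjusted p = 0.000759), the corepressor gene *Zeb2* (-2.35, adjusted p = 0.00704), the co-receptor gene *Eng* (-1.89, adjusted p = 0.0251), the decoy receptor gene *Bambi* (-1.48, adjusted p = 0.0218) and the BMP type II receptor gene *Bmpr2* (-1.09, adjusted p = 0.0135). *Eng* and *Bambi* were low, at 0.579 to 3.40 and 1.24 to 5.10 CPM. Without replicate 1 or 2 of the activated “wannabes” the count fell to 4 and 3 of the 73 genes. *Itgae*, *Nrp1* and *Mstn* kept their calls in all 10 alternatives, whereas *Zeb2* was lost without either activated library (adjusted p up to 0.0754), *Bmpr2* without activated replicate 2 (0.0909), *Bambi* without either activated library or resting replicate 1 and with the replicate block (up to 0.128), and *Eng* in the same fits and without resting replicate 3 (up to 0.171). The median log2 fold change of the 49 genes was -0.21, beside -0.01 over all genes.

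**Figure D4:**
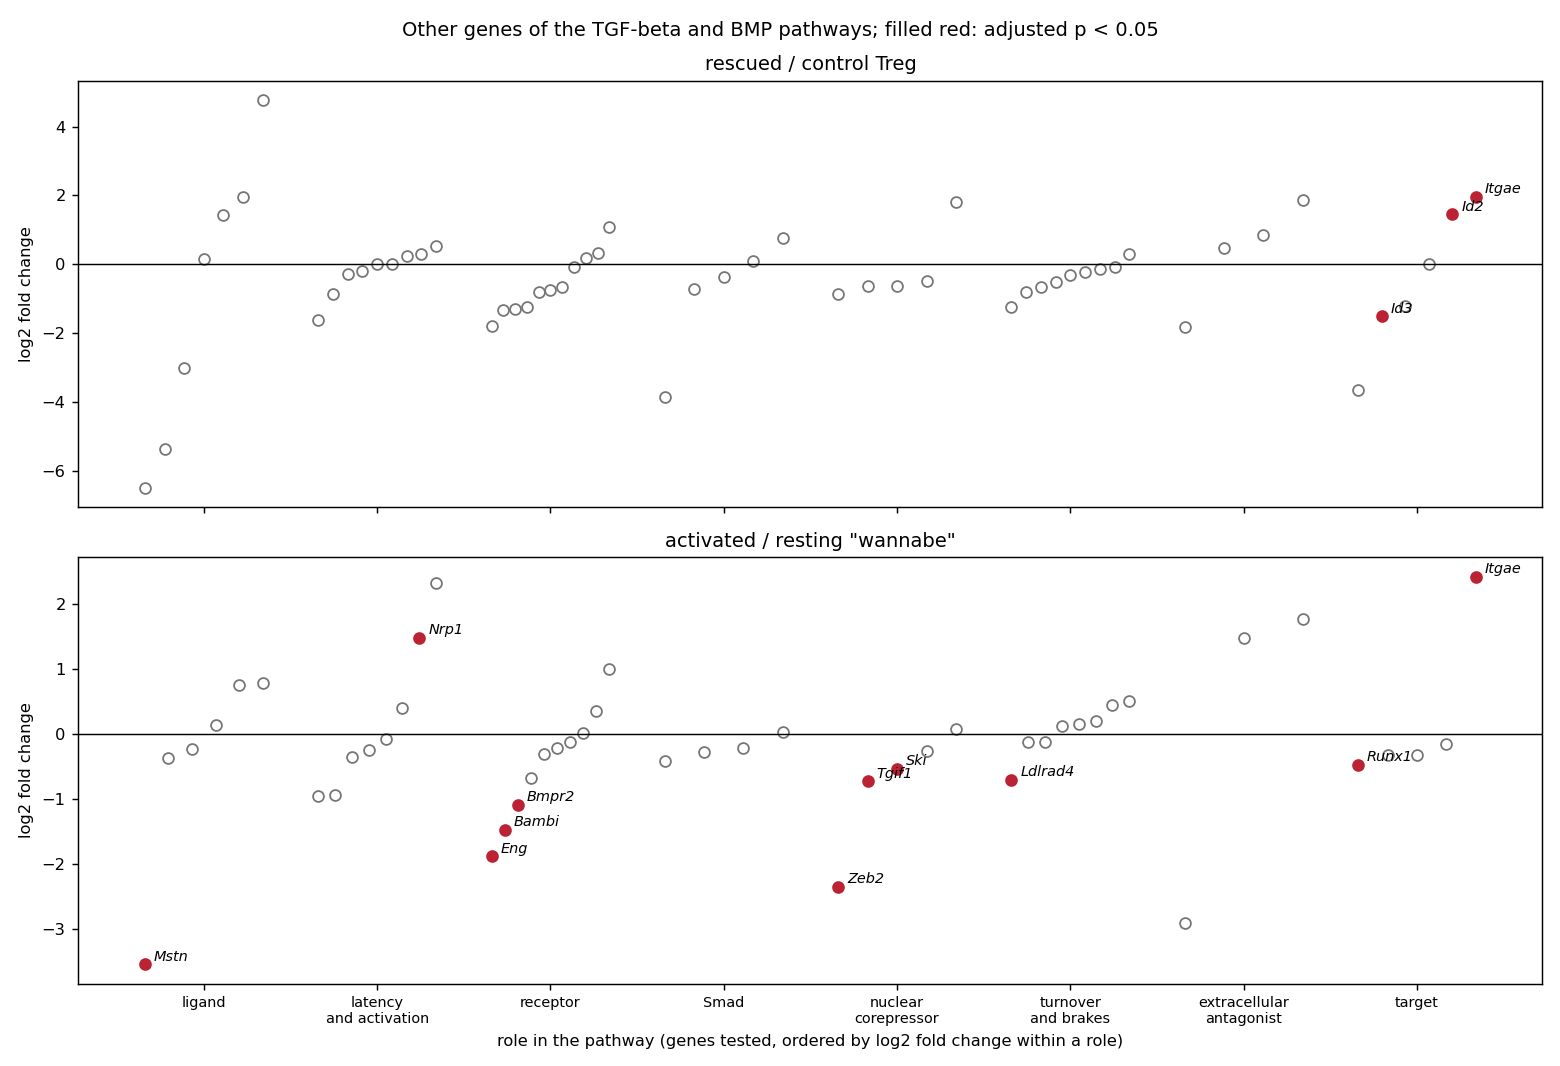
Log2 fold change (y axis) of the further pathway genes tested in rescued against control Treg cells (upper panel) and in activated against resting “wannabes” (lower panel), by role (x axis) and in ascending order within a role. Filled red points are the 3 and 11 genes with an adjusted p under 0.05; open points were not called. *Itgae* is among the red points of both panels, at 1.96 and 2.42.

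*Smad2*, which carries the TGF-beta signal beside *Smad3*, had mean levels of 103, 109.8 and 113 CPM in control Treg, rescued Treg and male “wannabe” cells and 117 and 119 CPM in resting and activated “wannabes”, and *Smad4*, the shared partner of both pathways, 48.2, 37.6, 28.1, 30.9 and 23.0 CPM in that order. Neither was called in any comparison, with adjusted p of 0.0571 and 0.0780 for *Smad4* in control Treg cells against “wannabes” and in activated against resting “wannabes”.

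For the genes with the widest ranges the genes of the most similar pattern were listed by the correlation of log2 CPM over the 8 male libraries, which share group structure and depth, so the values are a description. For *Lrrc32* these were *Snrk* (r = 0.992), *Ip6k1* (0.990) and *Fam210b* (0.989), and over the 5 female libraries their r was -0.84, -0.70 and -0.37. For *Itgb8* they were *Nfat5* (0.990), *Grk4* (0.990) and *Dmtf1* (0.983), with 0.908, 0.579 and 0.932 in the female libraries. For *Bmp7* they were *Nfil3* (0.981), *N4bp1* (0.981) and *Ubl3* (0.967), with -0.48, 0.683 and -0.59 in the female libraries. The genes were selected on the male values, and the female values rest on 5 libraries of 2 groups, so no direction is read from them.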

How the data were processed

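Bulk RNA-seq was used from 13 libraries, each of sorted spleen and lymph node cells of separate mice, grouped by title and genotype. The series' design text gives the numbers of resting and activated “wannabes” the other way round from the sample titles, genotypes and column names, which were followed. The deposited values are raw read counts per gene. The authors amplified RNA with SMART-Seq v4, aligned reads with STAR (2.7.3a per the submitters' notes, which also name DESeq2 1.28.1) to GRCm38, realigned them locally by GATK and summed them over genes in R. The annotation and strand setting of the counting are not given in the sources used here. Of 24421 entries in each table, 4 without a gene name (0.00428 to 0.00841% of counts) were left out.

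Counts were tested in R 4.3.3 with edgeR 4.0.16 (TMM, filterByExpr on groups, quasi-likelihood F test, Benjamini-Hochberg adjustment over all genes tested, threshold 0.05 on the adjusted p). One fit held the 8 male libraries (common biological coefficient of variation 0.510, 5 residual degrees of freedom), another the 5 female libraries (0.171 and 3), and a fit of all 13 gave the difference of changes. SE and intervals come from the same fit. All p-values are edgeR's unless DESeq2 is named. Coordinates and exon lengths are those of GENCODE M21 on GRCm38, which lists no other gene overlapping any of the 10. A floor of 3 counts is 0.0834 to 0.119 CPM and covers counting error only, since the reads carry no molecular identifiers. Each result was recomputed without each library in turn, with DESeq2 1.42.0 in place of edgeR, with its size factors in place of TMM, unfiltered or filtered at a mean CPM over 3, blocked by replicate number, and with just the compared groups in the fit. With 1 library left in a group, it is assumed to vary like the others. The scripts were tested on simulated data.

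The 10 genes and the list of 73 pathway genes were chosen with earlier results of these data known. All 10 are named in every comparison. Of the 73, those called are named, at most the 5 largest rises and falls per comparison; *Itgae*, sixth by fall in control Treg cells against “wannabes”, and *Itgav*, *Smad2*, *Smad4*, *Nog*, *Chrd* and the label and marker genes *Foxp3*, *Thy1*, *Pf4* and *Gp1bb* were named beyond that rule. The correlation lists hold the 3 highest Pearson correlations among genes with a mean CPM over 3, on log2 CPM with a prior count of 2. *Ccn2* is listed under its older symbol *Ctgf* in the tables. Promoter windows are from RefSeq (GRCm38.p6).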

Additional observations from a re-analysis of the deposited data

Results flagged for a closer look

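For 1 of the 10 genes and 2 of the 58 pathway genes tested, the change in rescued against control Treg cells differed from that in activated against resting “wannabes”, by the test of the difference itself in edgeR over all 13 libraries, beside 1.53% of the 15201 genes tested. *Twsg1* differed by 1.71 on the log2 scale (SE 0.18, adjusted p = 0.000638): it was at 148, 172 and 139.8 CPM in control and 209, 230.3 and 220.4 CPM in rescued Treg cells, and at 381, 407 and 342 CPM in resting and 159.7 and 173 CPM in activated “wannabes”. *Id2* differed by 1.80 (SE 0.30, adjusted p = 0.0120), with 64.2, 52.0 and 51.7 CPM in control and 155, 189 and 118 CPM in rescued Treg cells, and 464, 611 and 350.4 CPM in resting and 381 and 376 CPM in activated “wannabes”. *Nrp1* differed by -1.47 (SE 0.25, adjusted p = 0.0129), with 512, 521 and 617 CPM in control and 496, 546 and 608 CPM in rescued Treg cells, and 116, 101 and 166 CPM in resting and 364 and 347 CPM in activated “wannabes”. Without either activated library *Id2* and *Nrp1* lost the call, with adjusted p up to 0.0816 and 0.0667. Sex, age, treatment, the Cre and the *Foxp3* alleles compared differ between the experiments. So do the cells sorted, Treg cells in the male and “wannabes” without Foxp3 protein in the female mice. Their parts in this difference cannot be told apart.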

How the results depend on the processing

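Of 700 repeated tests of the 10 genes, 652 kept their direction and side of the threshold, 28 lost the call, 9 gained one and 11 turned their direction, all 11 among differences that were not called. In rescued against control Treg cells 1 gene was called, and 3 with DESeq2, 2 with a mean CPM over 3, 2 in the fit of these groups alone and 0 to 1 without a library (0 without control Treg replicate 1). In rescued Treg cells against “wannabes” 6 were called, and 2 in the fit of these groups alone and 3 to 6 without a library (3 without “wannabe” replicate 1 or rescued Treg replicate 3). For the difference of changes it was 1, and 2 with DESeq2 and 1 to 2 without a library (2 without either male “wannabe”). Without a library the counts were 4 to 5 in control Treg cells against “wannabes” and 5 to 6 in activated against resting “wannabes”.

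The directions that turned were those of *Tgfb1* in rescued against control Treg cells (0.022 with a mean CPM over 3, -0.13 to 0.043 without a library), in activated against resting “wannabes” (-0.038 to 0.066) and in the difference of changes (-0.11 to 0.040), of *Smad7* in activated against resting (-0.10 to 0.21) and in rescued Treg cells against “wannabes” (-0.14 to 0.61), and of *Skil* in the latter (-0.45 to 0.072). Of the 73 pathway genes DESeq2 called 10 rather than 3 in rescued against control, 17 rather than 11 in control against “wannabe” and 4 rather than 2 for the difference, which was also 4 with the replicate block. In rescued against “wannabe” 4 rather than 8 were called in the fit of these groups alone. Without a library the counts were 2 to 4, 4 to 9, 9 to 13, 3 to 14 and, for the difference, 0 to 3. The cause of these shifts was not tested.

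Same-numbered libraries deviated from their group means with correlations of -0.0292 to 0.0845. In a group of 2 libraries the deviations mirror each other, so these values cannot settle whether the numbers pair the samples. With the replicate number as a block 49 of 50 tests of the 10 genes were as before and the rise of *Bmp7* in rescued Treg cells against “wannabes” was not called (adjusted p = 0.0914). Over all genes, rescued against control Treg cells had 343 calls, and 1096 with DESeq2, 612 without a filter and 580 in the fit of these groups alone, and the difference 233 calls and 770 with DESeq2. With 2 or 3 libraries a group, differences that did not pass are not shown to be absent.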

Other observations

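*Mstn*, the gene of the activin-type ligand myostatin, was at 69.5, 76.6 and 43.1 CPM in resting and at 5.67 and 5.15 CPM in activated “wannabes”, and between 0 and 0.973 CPM in the 8 male libraries. *Furin* had mean levels of 15.2 CPM in control Treg, 18.9 in rescued Treg and 50.7 in male “wannabe” cells and of 222 in resting and 116 in activated “wannabes”. *Tgfbr3* was at 24.1 to 31.3 CPM in control Treg, 13.2 to 19.8 in rescued Treg and 93.6 and 112 in male “wannabe” libraries, and at 112 to 126 CPM in the 5 female “wannabe” libraries. The BMP antagonist gene *Nog* had 0 counts in all 13 libraries, and *Chrd* did not exceed 0.0576 CPM in any.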
